A study of Homo sapiens with 4 samples.

Results

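The regions described here are SMAR1 peaks that lie away from transcription start sites and outside protein-coding genes and whose sequence holds an uninterrupted run of alternating T and C. They were chosen from the 2 deposited SMAR1 peak lists by position and sequence alone. A peak was a member if it lay on chromosomes 1 to 22 or X, if its centre was more than 1 kb from every annotated transcription start site (TSS) and not between the start and end of a protein-coding gene, and if its hg19 sequence held a pure T-C run (or an A-G run, which is the same repeat read on the other strand) of at least 12 bp. Of 13926 peaks in both lists, 3458 (24.8%) were members, 1051 in HCT116 p53+/+ and 2407 in HCT116 p53-/-.

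Both libraries came from HCT116 cells, a line derived from a human colorectal carcinoma, in its p53+/+ form and its p53-/- form without p53, neither of them treated. Chromatin was pulled down with an antibody to SMAR1 and sequenced, with 1 SMAR1 library for each line, and the authors called peaks on each library. No difference between the lines therefore has a replicate check, and no p-value was computed. Each peak carries the score of the peak caller MACS, the p-value of the peak on a -10 log10 scale. The score grows with sequencing depth and was compared only within a library. Normal rabbit IgG libraries of both lines belong to the series and were not analysed here, and the peak lists give no read numbers, so the reads behind a peak are not known from them. The study obtained more reads for the line without p53, and it reported that only a minority of the reads of each SMAR1 library aligned. The 95% interval beside a share is a Wilson interval and covers no error other than that of counting. Neighbouring peaks and runs are not independent of each other.

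SMAR1, encoded by BANP, is a nuclear matrix protein first described as a binder of matrix attachment regions, the AT-rich stretches where chromatin loops are anchored, and it is known as a repressor that recruits histone deacetylases and as a partner of p53. Runs of pyrimidines on one strand and purines on the other are common simple repeats of the human genome, mostly found in introns and between genes. Such mirror-repeat tracts can leave the usual double helix, for instance as a triple-stranded structure with a free purine or pyrimidine strand, and their length varies between alleles because they slip during replication.

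Some of the highest-scoring members were short peaks. Below, bases are written as on the plus strand of hg19, and capitals mark pure T-C or A-G runs of at least 12 bp. These 3 peaks belong to the 5 highest-scoring members of their library.
p53+/+, near RBFOX1, chr16:5224561-5224596: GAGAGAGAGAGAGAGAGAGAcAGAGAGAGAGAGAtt
p53-/-, near RAI14, chr5:34396434-34396501: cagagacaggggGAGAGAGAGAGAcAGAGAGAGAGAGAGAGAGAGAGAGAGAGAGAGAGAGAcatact
p53-/-, near C1D, chr2:68128612-68128655: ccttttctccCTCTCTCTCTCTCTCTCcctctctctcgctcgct

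The longest pure runs reached 108 bp. The 5 sequences below hold 5 of the longest runs. The last has a single pure run, and the others have 2 or 3 runs. These runs adjoin directly or are separated by a single base or a short tract of pyrimidines or purines.
p53+/+, near NECTIN1, chr11:119614686-119614850: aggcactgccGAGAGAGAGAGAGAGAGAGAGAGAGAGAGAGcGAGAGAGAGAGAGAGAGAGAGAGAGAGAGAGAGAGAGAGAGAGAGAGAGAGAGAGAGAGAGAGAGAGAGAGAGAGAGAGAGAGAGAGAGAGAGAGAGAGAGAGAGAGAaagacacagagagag
p53-/-, near RAB38, chr11:87825484-87825618: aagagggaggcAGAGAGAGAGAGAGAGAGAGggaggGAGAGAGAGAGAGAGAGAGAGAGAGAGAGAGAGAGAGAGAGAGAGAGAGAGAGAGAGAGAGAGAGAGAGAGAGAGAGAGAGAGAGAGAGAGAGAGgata
p53+/+, near BARHL2, chr1:90858341-90858487: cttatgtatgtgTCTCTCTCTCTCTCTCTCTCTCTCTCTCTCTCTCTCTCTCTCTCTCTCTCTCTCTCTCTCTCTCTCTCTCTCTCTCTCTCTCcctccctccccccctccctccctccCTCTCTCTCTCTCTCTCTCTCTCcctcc
p53+/+, near KCNJ3, chr2:155433636-155433815: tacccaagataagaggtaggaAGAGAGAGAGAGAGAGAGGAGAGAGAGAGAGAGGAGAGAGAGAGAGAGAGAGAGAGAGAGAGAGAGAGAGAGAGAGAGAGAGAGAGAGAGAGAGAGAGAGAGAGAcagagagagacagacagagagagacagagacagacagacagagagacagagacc
p53+/+, near VSTM2A, chr7:54466368-54466449: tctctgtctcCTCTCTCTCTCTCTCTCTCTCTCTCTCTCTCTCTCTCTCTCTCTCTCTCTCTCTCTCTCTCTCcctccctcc

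The next 3 sequences are p53-/- members upstream of named miRNA genes.
p53-/-, upstream of MIR371A, MIR372 and MIR373, chr19:54287064-54287117: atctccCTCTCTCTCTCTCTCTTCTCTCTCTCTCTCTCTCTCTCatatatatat
p53-/-, upstream of MIR7-3, chr19:4766242-4766309: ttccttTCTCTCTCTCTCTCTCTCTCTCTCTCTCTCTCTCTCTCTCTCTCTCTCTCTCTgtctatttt
p53-/-, upstream of MIR4449, chr4:53576285-53576336: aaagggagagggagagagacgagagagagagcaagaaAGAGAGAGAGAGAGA

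Members made up a larger part of the p53-/- list than of the p53+/+ list. They were 18.4% of the 5709 peaks in p53+/+ (95% interval 17.4 to 19.4) and 29.3% of the 8217 peaks in p53-/- (28.3 to 30.3). In p53+/+, 5471 peaks lay on chromosomes 1 to 22 and X, 5463 of these had a complete sequence, 4669 were centred more than 1 kb from every TSS and 2783 of those were outside coding genes. In p53-/-, the corresponding numbers were 8127, 8124, 6791 and 4041. The run was thus present in 37.8% of the distal peaks outside coding genes in p53+/+ and in 59.6% of them in p53-/-. The p53-/- list held 2.29 times as many members as the p53+/+ list. Distal peaks with the same repeat inside coding genes numbered 629 and 1475, a ratio of 2.34. By contrast, distal peaks outside coding genes with a T-G run of at least 12 bp and no T-C run numbered 686 and 867 (ratio 1.26), and those with neither run numbered 1046 and 767 (ratio 0.733). The whole lists had a ratio of 1.44. With 1 library per line, the difference between the lines cannot be told apart from a difference in depth or in enrichment between the libraries.

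The members were short peaks in both libraries, with a median length of 55 bp in p53+/+ (quartiles 42 and 82.5 bp) and 60 bp in p53-/- (quartiles 46 and 88 bp). In p53+/+, 43.2% of the members were no longer than 50 bp, and in p53-/- 36.2% were. The longest pure run of a member had a median of 20 bp in p53+/+ (quartiles 16 and 28 bp) and 23 bp in p53-/- (quartiles 16 and 33 bp), and the longest run in each library was 108 bp. Pure runs covered a median of 48.6% of the peak in both. When C and T were allowed in any order, the longest tract had a median of 32 bp in p53+/+ and 35 bp in p53-/- and reached 383 bp. A single pure run was present in 65.4% of the members in p53+/+ and in 67.0% in p53-/-, and 3 or more were present in 11.4% and 10.1%. The richest member of each library held 24 runs. A T-G run of at least 12 bp accompanied the T-C run in 11.2% of the p53+/+ members and in 11.97% of the p53-/- members.

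The pyrimidine strand was the plus strand in 52.6% of the p53+/+ members (49.6 to 55.6) and in 50.9% of the p53-/- members (48.9 to 52.9), so neither share differed from an even split beyond counting error. The longest run overlapped the peak centre in 53.3% of the members in p53+/+ and in 58.5% in p53-/-, and the median distance between both centres was 9 and 8.5 bp. Read along the pyrimidine strand, the base at the peak centre was C or T in 92.4% of the p53+/+ members and in 92.9% of the p53-/- members. Between 50 and 60 bp away the mean was 61.7% and 61.4%, and between 150 and 200 bp away it was 54.8% and 53.5%. A pure run of at least 12 bp covered the centre in 63.4% and 67.1% of the members and covered 0.995% and 0.638% of the positions 150 to 200 bp away. As each member had to contain a run and most members were short, the place of the run follows largely from the rule, and these values are given as a description.

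**Figure D1:**
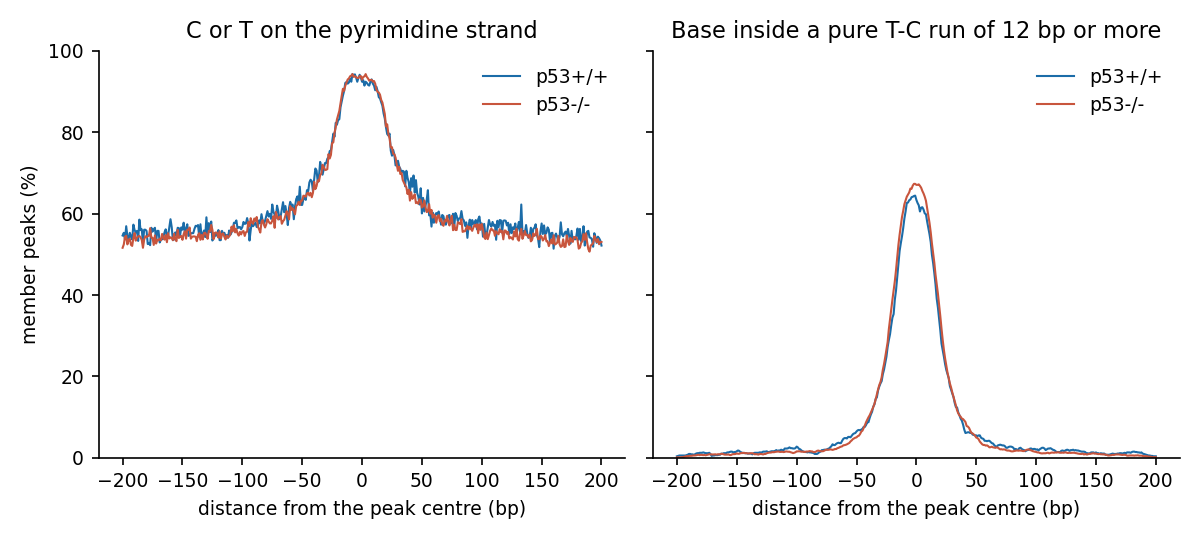
Share of member peaks (%) against the distance from the peak centre in bp, for HCT116 p53+/+ (1051 peaks) and HCT116 p53-/- (2407 peaks). The left panel plots the share with C or T on the pyrimidine strand and the right panel the share in which that base lies in a pure run. Both lines are high around the centre, at which C or T made up 92.4% and 92.9%, and approach a flat level within about 100 bp.

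To ask how many of the available repeats lay in a peak, every pure T-C run of at least 12 bp on chromosomes 1 to 22 and X was located in hg19. There were 72116 such runs, and 41575 of them (57.7%) lay outside coding genes and more than 1 kb from every TSS. A run was counted as occupied if at least 12 of its bases lay in a peak. In p53+/+, 1770 of these runs (4.26%, 4.07 to 4.46) were occupied. In p53-/-, 3784 runs (9.10%, 8.83 to 9.38) were occupied. Occupied runs were thus a minority in both libraries. Runs of the same kind inside coding genes were occupied in 4.06% (3.83 to 4.31) and 8.87% (8.53 to 9.23) of cases, and these intervals overlap those outside coding genes. T-G runs, which outnumber T-C runs outside coding genes (87100 runs), were occupied in only 1.10% (1.04 to 1.17) and 1.64% (1.56 to 1.72) of cases. T-C runs were therefore occupied more often than T-G runs in both libraries, beyond counting error.

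Longer runs were occupied more often. Runs of 12 to 13 bp were occupied in 2.79% of cases in p53+/+ (2.55 to 3.06), runs of 20 to 23 bp in 5.53% (4.81 to 6.35) and runs of 40 to 59 bp in 9.59% (7.85 to 11.7). In p53-/-, the shares of the same classes were 5.17% (4.84 to 5.53), 12.5% (11.4 to 13.6) and 34.0% (30.995 to 37.1). Of the 58 runs of 60 bp or more, 11 were occupied in p53+/+ (18.97%, 10.9 to 30.9) and 34 in p53-/- (58.6%, 45.8 to 70.4). The share was higher in each length class than in the one before it in both libraries, although the intervals of some neighbouring classes overlapped in p53+/+. T-G runs of 40 to 59 bp were occupied in 3.98% (3.57 to 4.44) and 5.33% (4.85 to 5.85) of cases. The gap between T-C and T-G runs of this length was thus wider in p53-/- than in p53+/+. A longer run offers more bases on which a peak can fall, and the part of this in the result was not tested.

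**Figure D2:**
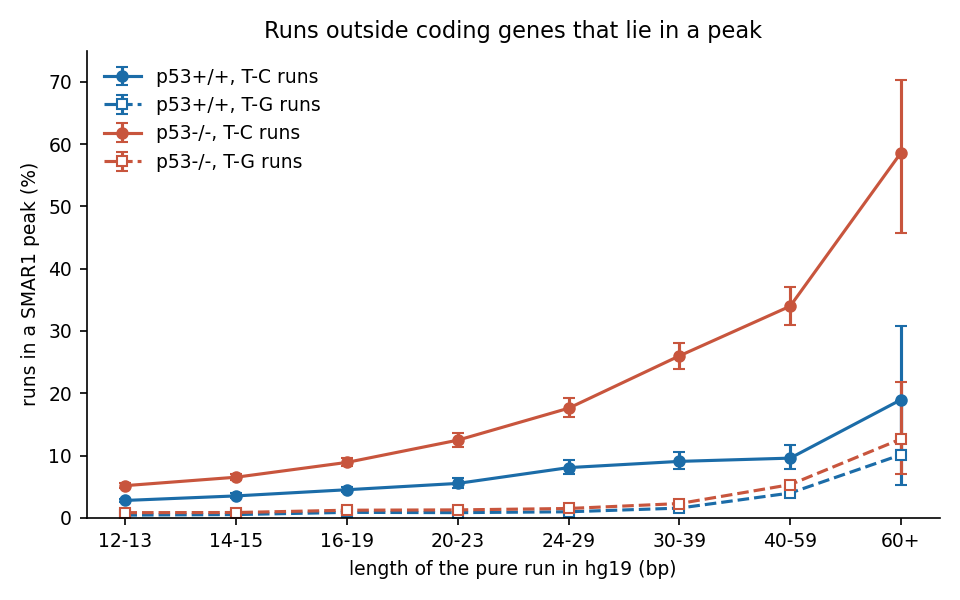
Share of pure runs outside coding genes that lay in a SMAR1 peak (%) against the length of the run in bp, for T-C runs (filled circles) and T-G runs (open squares) in both libraries. Points are shares and bars are 95% Wilson intervals. T-C runs of 60 bp or more were occupied in 18.97% of cases in p53+/+ and 58.6% in p53-/-, and T-G runs lie below T-C runs in every length class.

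Runs with other runs nearby were occupied far more often than isolated runs. A run with no other pure T-C run within 100 bp was occupied in 2.04% of cases in p53+/+ (1.89 to 2.203) and in 4.86% in p53-/- (4.63 to 5.10). With 1 other run within 100 bp the shares were 7.59% (6.99 to 8.24) and 16.8% (15.9 to 17.7), and with 2 or more they were 22.3% (20.7 to 23.9) and 40.1% (38.3 to 42.0). The same order held among the shortest runs, those of 12 to 15 bp, where the share was 0.867%, 6.01% and 21.9% in p53+/+ and 1.68%, 12.6% and 36.2% in p53-/-. Runs that share a peak were each counted here, so runs were also joined into loci if they were at most 100 bp apart. Of 36111 loci outside coding genes, 31978 held 1 run and 15 held 10 or more. A locus with 1 run had a peak in 2.04% of cases in p53+/+ and in 4.86% in p53-/-. Among loci with 3 or 4 runs, 17.2% (14.5 to 20.3) and 34.0% (30.5 to 37.8) had a peak. Among the 15 loci with 10 or more runs, 12 had a peak in each library (80.0%, 54.8 to 93.0), and 11 of these had a peak in both. A locus was counted if any of its runs lay in a peak, so more runs also offer more bases on which a peak can fall. The part of this in the result was not tested.

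**Figure D3:**
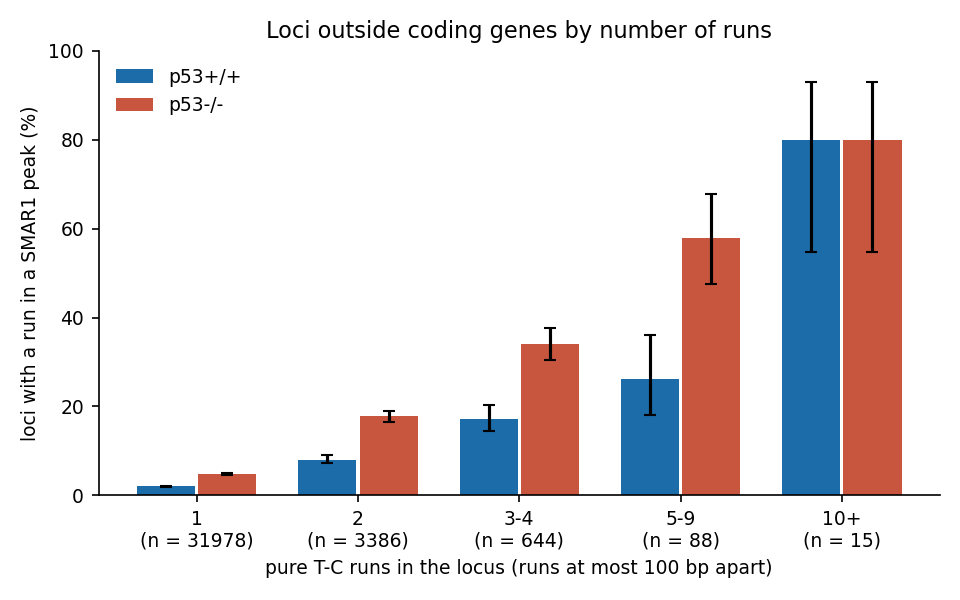
Share of repeat loci outside coding genes with a run in a SMAR1 peak (%) against the number of pure T-C runs in the locus, for both libraries. Bars start at 0, and error bars are 95% Wilson intervals. The share was 2.04% and 4.86% for loci with 1 run and 80.0% in both libraries for the 15 loci with 10 or more runs.

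Short runs in a long stretch of pyrimidines were also occupied more often. Among runs of 12 to 15 bp that lay in a tract of C and T (in any order) of 12 to 19 bp, 2.50% (2.24 to 2.79) were occupied in p53+/+ and 4.34% (3.999 to 4.71) in p53-/-. In tracts of 60 bp or more, the shares were 6.96% (6.05 to 8.003) and 11.3% (10.2 to 12.6) for pure runs of the same length. Tracts of 20 to 29 bp gave 2.06% and 3.89%, so the share did not rise over the shortest tracts. A long tract can hold several pure runs, whose presence also went with occupancy, and runs that share a peak were each counted. The part of this in the result was not tested. Tract length and pure run length each went with occupancy in p53-/-. There, runs of 24 to 39 bp were occupied in 15.2% of cases (13.3 to 17.3) in tracts of 20 to 29 bp and in 30.7% (26.5 to 35.2) in tracts of 60 bp or more. In p53+/+, the shares for these runs were 7.96% (6.58 to 9.59) and 11.2% (8.58 to 14.6), and their intervals overlap.

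Matrix attachment regions are AT-rich, and the base composition next to the repeats was therefore examined. The 100 bp on each side of a member had a median GC content of 42.0% in p53+/+ (41.5 to 42.5) and 41.5% in p53-/- (41.0 to 42.0), where intervals of medians come from order statistics. Flanks of distal non-repeat peaks outside coding genes had medians of 43.5% (43.0 to 44.5) and 46.0% (45.5 to 46.5), and those of T-G peaks 39.5% (38.5 to 40) and 39% (38.5 to 39.5). Members thus lay between the other classes in both libraries. Among all runs outside coding genes, those in the lowest quartile of flank GC content (up to 36%) were occupied least, in 2.58% of cases in p53+/+ (2.29 to 2.91) and 5.99% in p53-/- (5.54 to 6.47). Those in the highest quartile (47.5% or more) were occupied in 6.58% (6.13 to 7.07) and 12.3% (11.7 to 12.97) of cases. Runs with GC-richer flanks were therefore the more often occupied in both libraries. These flanks began at the ends of the tract and could hold other runs, whose presence also went with occupancy. The part of such runs in this order was not tested. Flanks of members began at the peak edges, so both measures are not alike. For runs of at least 24 bp the lowest and the highest quartile gave 7.54% (6.24 to 9.08) and 10.7% (9.11 to 12.6) in p53+/+ and 19.6% (17.6 to 21.8) and 28.3% (25.9 to 30.9) in p53-/-.

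Occupancy varied between chromosomes. In p53+/+, the share of occupied runs lay between 2.92% on chromosome 16 (2.10 to 4.03) and 8.57% on chromosome 19 (6.83 to 10.7). In p53-/-, it lay between 7.53% on chromosome 5 (6.60 to 8.57) and 12.4% on chromosome 19 (10.3 to 14.9). Chromosome 22 followed chromosome 19 in both, at 7.59% (5.48 to 10.4) and 12.3% (9.55 to 15.6). Runs that share a peak were each counted in these shares. The 34 occupied runs of chromosome 22 in p53+/+ went with only 10 members. Per Mb of sequence that met the TSS and gene rules, these were 0.709 members, against 0.719 over all chromosomes. In p53-/-, chromosome 22 had 1.84 members per Mb, against 1.65 over all. On the X chromosome, 5.96% (5.16 to 6.87) and 10.6% (9.49 to 11.7) of 2938 runs were occupied, both above the shares over all chromosomes. The X chromosome held the most members of any chromosome, 96 in p53+/+ and 190 in p53-/-.

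**Figure D4:**
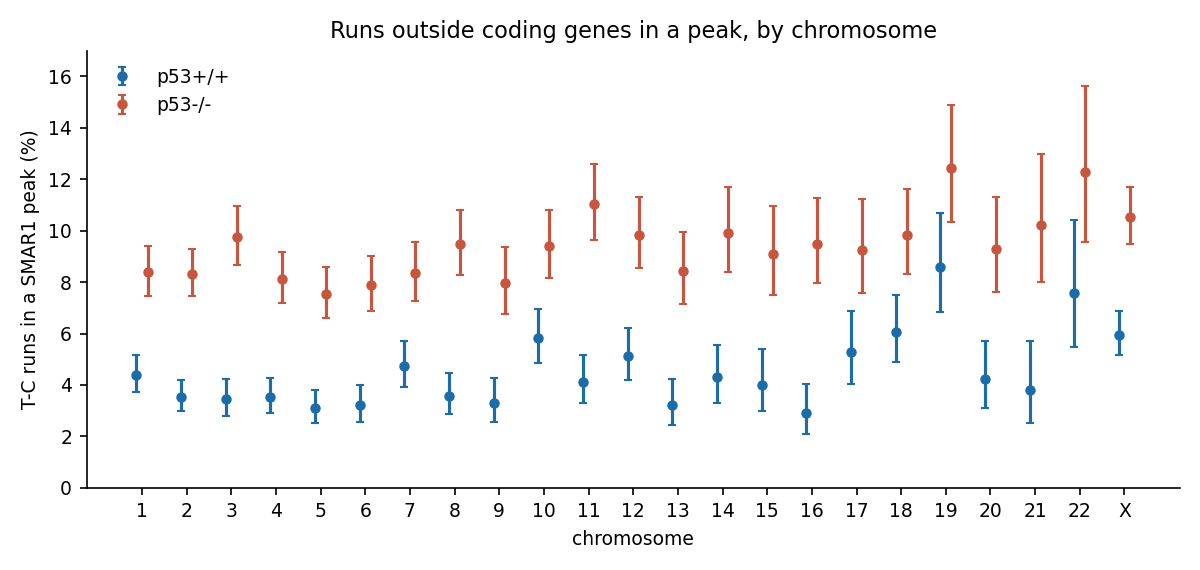
Share of pure T-C runs outside coding genes that lay in a SMAR1 peak (%), by chromosome and library, with 95% Wilson intervals. Chromosome 19 was highest in both libraries (8.57% and 12.4%), and the p53-/- points lie above the p53+/+ points on every chromosome.

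The scores of members overlapped widely with those of the other distal peaks. The median score of the members was 67.78 in p53+/+ (66.57 to 68.3, quartiles 56.34 and 88.35, highest 404.2) and 75.33 in p53-/- (74.26 to 76.09, quartiles 61.06 and 98.83, highest 435.68). In p53+/+, T-G peaks outside coding genes had a higher median (73.66, 71.95 to 73.66), and non-repeat peaks had a lower one (65.53, 64.48 to 66.27). Among shared peaks, this difference from non-repeat peaks turned to -1.41. In p53-/-, members had the highest median of the classes outside coding genes, above T-G peaks (66.65, 65.06 to 68.62) and non-repeat peaks (70.74, 69.06 to 73.93). Distal peaks with the same repeat inside coding genes had medians of 65.78 (63.42 to 67.86) in p53+/+ and 73.92 (71.19 to 75.25) in p53-/-. Both of these intervals overlap those of the members. Members made up 72.6% (69.8 to 75.3) of the top score quartile of distal peaks outside coding genes in p53-/-, against 58.7% (55.6 to 61.7) of the lowest quartile. In p53+/+ these shares were 39.1% (35.5 to 42.8) and 42.0% (38.4 to 45.7), and their intervals overlap. The middle quartiles gave 34.3% and 35.6% in p53+/+ and 51.5% and 55.4% in p53-/-, so the share did not rise steadily with the score. Many members had the same score. The 1051 p53+/+ members took 526 distinct values and the 2407 p53-/- members 801. The most frequent score among members was 110.92 in p53+/+, carried by 29 members, and 81.61 in p53-/-, carried by 108. The score showed no such order with run length. Members with a run of 12 to 13 bp had a median score of 67.86 in p53+/+ and 75.005 in p53-/-, and those with a run of 40 to 59 bp had 64.25 and 75.17. Just outside the rule, distal peaks outside coding genes whose longest run was 11 bp numbered 70 in p53+/+ (median score 70.9) and 93 in p53-/- (median 74.76). Just inside it, members whose longest run was 12 bp numbered 50 (median 67.86) and 75 (median 73.93).

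Peaks with the pyrimidine repeat were found in both lines more often than T-G peaks. Of the p53+/+ members, 289 (27.5%, 24.9 to 30.3) overlapped a peak of the p53-/- list by at least 1 bp, and 291 p53-/- members (12.1%, 10.8 to 13.5) overlapped a p53+/+ peak. For distal pyrimidine-repeat peaks inside coding genes the shares were 27.5% (24.2 to 31.1) and 12.1% (10.6 to 13.9). For T-G peaks outside coding genes they were 5.10% (3.69 to 7.01) and 4.38% (3.21 to 5.96). For non-repeat peaks outside coding genes they were 10.2% (8.54 to 12.2) and 12.9% (10.7 to 15.5). Members thus exceeded both other classes in p53+/+ beyond counting error, and in p53-/- they exceeded T-G peaks but not non-repeat peaks. The p53-/- list held 2407 members but only 867 T-G peaks and 767 non-repeat peaks outside coding genes in which a p53+/+ peak could find a partner. The part of these unequal numbers in the shares was not tested. In 287 of the 289 p53+/+ members with a partner, the partner was a member as well, which follows largely from the overlap of both peaks. Of the 1770 runs occupied in p53+/+, 717 (40.5%, 38.2 to 42.8) were also occupied in p53-/-, where they were 18.9% (17.7 to 20.2) of the occupied runs.

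Shared members were longer than the rest. Their median length was 76 bp in p53+/+ (68 to 82), against 51 bp (49 to 54) for members without a partner, and 84 bp in p53-/- (74 to 91), against 58 bp (56 to 60). Their median score was 67.86 against 67.755 in p53+/+ and 81.61 (79.71 to 87.64) against 74.76 (73.86 to 75.33) in p53-/-. A longer peak is also more likely to be touched by another. Among peaks of 40 to 100 bp, members were shared in 22.3% of cases in p53+/+ (19.4 to 25.6) and 9.42% in p53-/- (8.15 to 10.9), T-G peaks in 5.00% (3.48 to 7.13) and 3.84% (2.69 to 5.46), and non-repeat peaks in 7.02% (5.31 to 9.24) and 9.21% (6.91 to 12.2). The order of the classes in p53+/+ was therefore also present at like lengths.

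**Figure D5:**
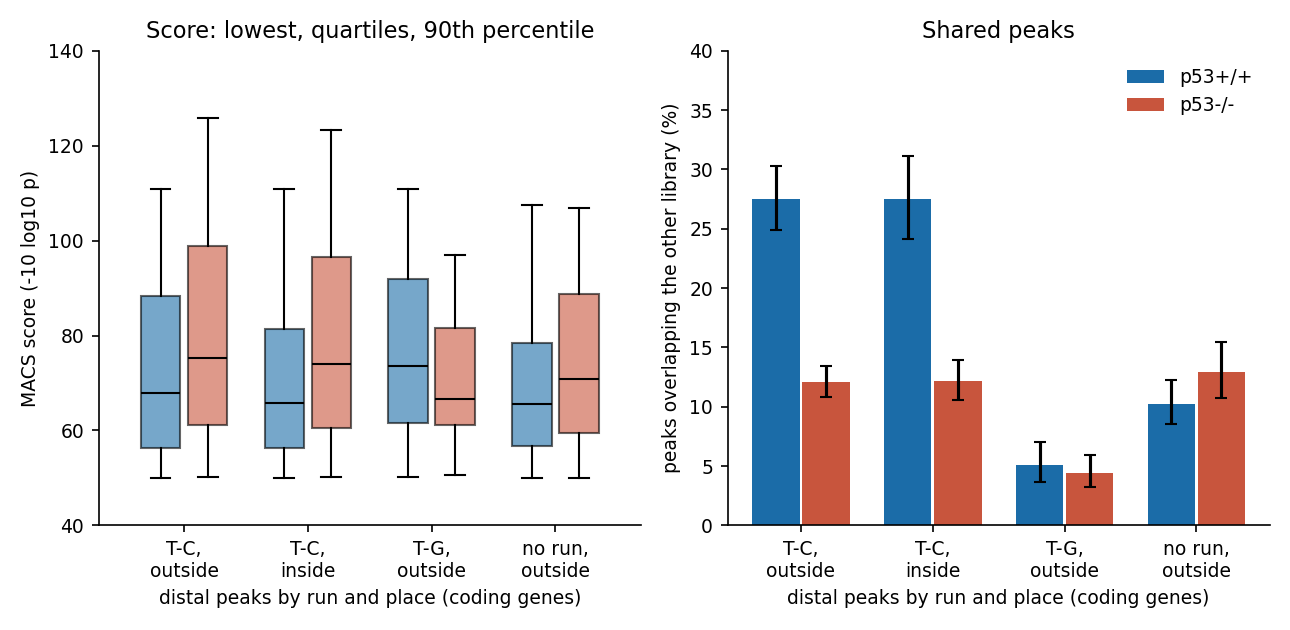
Left, MACS scores (-10 log10 p) of distal peaks by the run they hold (T-C, T-G, or neither) and their place outside or inside coding genes, with boxes from the lower to the upper quartile, a line at the median and whiskers from the lowest score to the 90th percentile. Right, share of the same peaks that overlapped a peak of the other library (%), with 95% Wilson intervals. T-C peaks were shared in 27.5% of cases in p53+/+ and 12.1% in p53-/-, inside and outside coding genes alike, and T-G peaks in 5.10% and 4.38%.

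Many central sequences of the members occur at several places in the genome, as is usual for a simple repeat. The 31 bases at the peak centre occurred elsewhere in the genome in 55.9% of the p53+/+ members (52.8 to 58.8) and 58.4% of the p53-/- members (56.4 to 60.3), and over 1000 times in 11.5% and 15.5%. For T-G peaks outside coding genes, 72.3% and 77.9% had such a copy, and for non-repeat peaks 37.4% and 30.9%. With 51 central bases, the share of members with a copy was 12.4% (10.5 to 14.5) and 14.001% (12.7 to 15.4). The longest run together with 15 bp on each side had a copy in 3.81% (2.81 to 5.14) and 2.99% (2.38 to 3.75) of the members. Where a read placed wholly within a long repeat was assigned is not given in the peak lists, and its part in these results was not tested.

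The members with the highest scores in p53+/+ were long peaks with several short runs. The peak at chr11:11268012-11268652 (score 404.2) held 9 pure runs, the longest of 16 bp, and its centre lay 24.1 kb from GALNT18, which encodes an enzyme of mucin-type O-glycosylation. It overlapped a p53-/- peak with a score of 230.58. The peak at chr15:86439859-86440798 (score 338.25, 5 runs), 102 kb from KLHL25, an adaptor of a ubiquitin ligase, overlapped a p53-/- peak of score 205.08. The peak at chr7:157253956-157254398 (score 309.87), 44.04 kb from the co-chaperone gene DNAJB6, held 13 runs with the longest of 26 bp and overlapped a p53-/- peak of score 266.59. The peak at chr10:132158426-132158980 (score 264.83) held 17 runs and lay in the lncRNA gene LINC02646, 176 kb from the glutaredoxin gene GLRX3. Its p53-/- counterpart scored 375.13. These 4 peaks were all found in both libraries. The fifth was the 36-bp peak near the splicing factor gene RBFOX1 printed above, which scored 213.26, had no partner and whose 31 central bases occurred 309 times in the genome.

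In p53-/-, the highest score of a member was 435.68, at the 68-bp peak printed above, 260 kb from RAI14, a gene for an actin-associated protein. Of the p53-/- list, 97.1% of the peaks scored no higher, so the highest scores of the list belonged to other peaks. The peak had no partner in p53+/+, and its central bases occurred 367 times in the genome. The peak at chr2:236302867-236303248 (score 380.3), 99.6 kb from the Arf GTPase-activating protein gene AGAP1, held a single run of 21 bp and had no partner. The peak in LINC02646 came next. The peak at chr18:22613458-22613856 (score 351.19), 28.2 kb from the zinc finger gene ZNF521, held 18 runs within a tract of 383 bp made only of A and G and overlapped a p53+/+ peak of score 140.74. The 44-bp peak near C1D, which encodes a nuclear exosome cofactor, scored 316.24 and had no partner. Thus 2 of the 5 were found in both libraries.

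Among members found in both libraries, the best placed by the lower of their 2 score ranks were the LINC02646, DNAJB6, GALNT18 and ZNF521 peaks and a peak at chr12:128053077-128053641, in an unnamed lncRNA gene 698 kb from TMEM132C, which scored 146.64 in p53+/+ and 306.94 in p53-/-. That peak held 14 pure runs, none over 17 bp, in a tract of 161 bp. All 5 of these loci were above the 95th percentile of the score in both lists. In the 289 overlapping pairs, the rank of the score within its list was higher in p53-/- in 168 pairs and higher in p53+/+ in 121. The same split for other shared peaks is not given here, so it has no comparison. In 95 pairs neither peak scored below its list's median.

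The members with the longest runs had scores from the lowest to the upper part of their list. Those with a run of 60 bp or more had a median score of 56.545 in p53+/+ (50.17 to 90.31, 8 members) and 80.635 in p53-/- (64.62 to 92.53, 34 members). The run of 108 bp at chr11:119614686-119614850, 14.9 kb from the cell adhesion gene NECTIN1, lay in a peak of both libraries, with scores of 57.47 in p53+/+ and 53.67 in p53-/-. The run of 95 bp at chr11:87825484-87825618, 20.9 kb from the small GTPase gene RAB38, was in a p53-/- peak alone (score 52.73). The run of 82 bp at chr1:90858341-90858487, 319 kb from the homeobox gene BARHL2, was in peaks of both libraries (scores 90.31 and 116.24). The run of 72 bp at chr2:155433636-155433815, 121 kb from the potassium channel gene KCNJ3, was also in both (63.08 and 65.57), as was a run of 63 bp at chr7:54466368-54466449 in LINC01445 (55.17 and 87.16). Runs of 75 bp at chr1:105050602-105050711 (score 58.68) and 74 bp at chr14:78549284-78549397, 87.4 kb from the neurexin gene NRXN3 (score 116.24), were in p53-/- peaks without a partner, and a run of 62 bp at chr16:63219816-63219899 (score 50.17) was in a p53+/+ peak without one. At each of these 8 loci, the 31 central bases of the peak in at least 1 library were pure repeat and occurred 21055 or 22365 times in the genome.

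Most members lay outside all annotated genes. No gene covered the centre of 756 members in p53+/+ (71.9%, 69.1 to 74.6) and 1709 in p53-/- (71.0%, 69.2 to 72.8). Genes for long noncoding RNAs (lncRNAs) covered 284 (27.0%, 24.4 to 29.8) and 670 (27.8%, 26.1 to 29.7), in nearly all cases in an intron, since 8 and 10 centres lay in an lncRNA exon. Pseudogenes covered 10 and 28. The repeats themselves were spread in the same way. Of the 41575 runs, 27.4% lay in lncRNA genes, and these were occupied in 4.06% (3.71 to 4.44) and 9.08% (8.57 to 9.62) of cases, against 4.36% (4.14 to 4.60) and 9.11% (8.78 to 9.44) of the runs outside all genes. Within lncRNA genes of a single direction, the pyrimidines were on the strand of the gene in 125 of 269 p53+/+ members (46.5%, 40.6 to 52.4) and 305 of 632 p53-/- members (48.3%, 44.4 to 52.2). The nearest coding gene was a median of 89.7 kb away in p53+/+ and 95.1 kb in p53-/-, and 171 (16.3%) and 344 (14.3%) members were over 500 kb from one. The nearest TSS of any transcript was a median of 19.4 and 21.3 kb away. Of the members, 9 in each library had their centre at most 100 bp farther from a TSS than the 1 kb limit (median scores 78.18 and 92.21). Another 3 and 6 peaks with the repeat missed the rule by at most 100 bp, being closer to a TSS (median scores 66.19 and 83.44).

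The members were spread over 281 lncRNA genes in p53+/+ and 601 in p53-/-. In p53+/+, 2 lncRNA genes held 3 or more members, of 1010 and 1013 kb on chromosome 5. ENSG00000251574 held 4 members (scores 53.93 to 152.63) and 2 of the p53-/- library, and ENSG00000254186 held 3 (64.48 to 110.92) and 1. In p53-/-, 21 lncRNA genes held 3 or more. ENSG00000288098 on the X chromosome, of 806 kb, held 6 p53-/- members (54.68 to 98.83) and none of p53+/+. The miRNA host genes MIR3681HG (869 kb) and MIR4300HG (897 kb), ENSG00000258526 (958 kb) and DANT2 (156 kb) held 4 each. DANT2 is a noncoding transcript next to the DXZ4 macrosatellite, a repeat array that organises the inactive X chromosome. Its 4 members (57.62 to 81.61) lay at chrX:114940139-115001394, and 1 p53+/+ member lay in the same stretch.

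Only a few members lay close together. The densest groups within 100 kb held 4 members in each library. In p53+/+, these were within 1.14 kb at chr4:80273623-80274763 (scores 57.1 to 65.39, 26.5 kb from NAA11), where p53-/- had 3 members, and within 24.7 kb on chromosome 8 near GFRA2, where p53-/- had 1. A group of 3 lay at chr1:1530294-1532240 near FNDC10. In p53-/-, the DANT2 group held 4. A group of 3 spanned chr1:55711080-55798471 near USP24, with no p53+/+ member.

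Members near miRNA genes were few. A miRNA gene was counted if the centre of a member lay within 5 kb upstream of it. In p53+/+, 1 member qualified, on chromosome 8 upstream of the clone-named gene AC022716.1 (score 91.96). In p53-/-, 12 members lay upstream of 12 miRNA genes. These did not pair 1 to 1, as 1 member lay upstream of MIR371A, MIR372 and MIR373. Counts for other classes of peaks are not given here, so these numbers have no comparison.

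The peak upstream of the chromosome 19 miRNA cluster, whose sequence is printed above, lay 3.84 kb upstream of MIR371A, 4.05 kb upstream of MIR372 and 4.87 kb upstream of MIR373, a cluster known for its expression in pluripotent cells. It scored 54.04, with 9.44% of its list scoring no higher, and its longest run was 22 bp. The peak upstream of MIR7-3, one of the genes for miR-7, lay 4.41 kb away and held a run of 53 bp (score 52.66). The peak upstream of MIR4449 lay 2.54 kb away, with a run of 15 bp (score 58.68). The peak 3.32 kb upstream of hsa-mir-5571 had a run of 30 bp and a score of 137.29. Clone-named miRNA genes had the other members. None of these 12 peaks overlapped a p53+/+ peak, and of all p53-/- members 12.1% did. Of 13 miRNA genes of interest in this study that were looked up by name, 12 were in the annotation. The look-up covered members alone, so other SMAR1 peaks near these genes were not counted. None of the genes had a p53+/+ member within the 5 kb limit, and MIR371A, MIR372 and MIR373 had a p53-/- member there. The nearest p53+/+ member to these 3 genes was 346 kb from MIR373. The p53+/+ member nearest to MIR100 was 6.31 kb away, and the nearest members to MIR221 and MIR222 were 143 and 144 kb away in p53+/+ and 444 and 445 kb away in p53-/-.

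The p53 consensus half-site was rare beside the repeats. It was present in the peak or the 50 bp on each side in 28 members of p53+/+ (2.66%, 1.85 to 3.82) and 80 of p53-/- (3.32%, 2.68 to 4.12). In the other distal peaks outside coding genes, the shares were 2.33% (1.44 to 3.75) and 2.77% (1.87 to 4.09) for T-G peaks and 2.77% (1.94 to 3.95) and 1.56% (0.897 to 2.71) for non-repeat peaks. All these intervals overlap those of the members, but in p53-/- those of members and non-repeat peaks only just do (2.68 against 2.71). Within the peak itself, it was present in 1 of 1051 members of p53+/+ and 6 of 2407 of p53-/-. Among T-G peaks it was present in 1 peak of each library, and among non-repeat peaks in 9 of 1046 and 3 of 767. A pure T-C or T-G run cannot hold the consensus, so the low counts in both repeat classes follow in part from the rule. The p53+/+ member with the consensus was at chr2:59357613-59357688 (score 67.86), 889 kb from FANCL. The 3 highest-scoring in p53-/- were at chr3:136993191-136993281 (120.03), chr1:5191733-5191823 (79.98) and chr14:38688633-38688735 (79.98), the last 6.41 kb from the somatostatin receptor gene SSTR1. The element TCTCGCGAGA, to which BANP is known to bind at unmethylated promoters, was searched in the peak, and it reads the same on both strands. No member held it, which allows a share of up to 0.285% in p53+/+ and 0.125% in p53-/-. Of all peaks with a complete sequence, promoter peaks included, 90 (1.58%) and 126 (1.54%) held it. It was also in none of the T-G peaks outside coding genes and of the distal pyrimidine-repeat peaks inside them, and in 2 and 3 of the non-repeat peaks, so its absence was not particular to the members.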

How the data were processed

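The authors sequenced 1 anti-SMAR1 ChIP library per cell line and deposited 1 peak list for each. Per the submitters' processing notes, cutadapt 1.2.1, FastQC 0.10.1, Bowtie2 2.2.1, SAMtools 0.1.19 and MACS 1.4.2 were used with hg19. The deposited score is that of MACS, -10 log10 of the p-value, not normalized for depth. The authors filtered peaks on fold enrichment, so weaker sites are missing, and whether IgG served as control is not given in the sources used here.

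Peaks were converted to 1-based coordinates and compared with GRCh37 (hg19) and GENCODE 44 mapped to it, with the start of every annotated transcript as a TSS. The members and lists were chosen with earlier results of these data known. The analyses of neighbouring runs, tracts, flanks and score quartiles were added after the data had been seen. Members were named if they were among the 5 highest scores, the 5 longest runs or the 5 best-placed shared members, lay within 5 kb upstream of a miRNA gene, held the p53 consensus (3 per library), or belonged to the lncRNA genes or groups with most members. One named group of members is not reported here. Functions were tested on simulated data. Python 3.11.15, numpy 2.4.6, scipy 1.17.1, numba 0.67.0 and matplotlib 3.10.9 were used.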

Additional observations from a re-analysis of the deposited data

How the results depend on the processing

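In this paragraph, values are given for p53+/+ first and for p53-/- second. The number of members stayed within 1.5 times the reported one under the other rules tried for the TSS, the coding gene, the chromosomes, a mismatch in the run and runs of at least 10 or 16 bp, and was 562 and 1470 with runs of at least 20 bp and 525 and 1284 with scores at or above the median. The shared share was 18.1% and 7.40% when both peaks had to score at or above the median, and 22.3% and 9.42% in peaks of 40 to 100 bp, an alternative chosen after seeing the data. The difference in median score from non-repeat peaks was 2.25 and 4.59. It was 5.21 and 7.13 percentage points on the rank of the score, 7.75 in p53-/- peaks of 40 to 100 bp, and -1.41 and 14.4 in shared peaks, so its direction in p53+/+ depended on that choice. The cause was not tested. The median of the longest run was 32 and 35 bp with C and T in any order and 19 bp in p53+/+ members with scores at or above the median. Runs of at least 20 bp were occupied in 7.49% and 19.3% of cases. Centres in an lncRNA exon made up 0.761% and 0.415% of the members. The p53 consensus was present in 0.0951% and 0.249% of the peaks alone and in 4.47% and 5.73% with 100 bp on each side. Copies elsewhere were found for 12.4% and 14.001% of the members with 51 bases and for 3.81% and 2.99% with the run and 15 bp. No paired analysis was possible because each line has 1 SMAR1 library and the labels give no replicate numbers. The limits are the single library per line, peak lists without read numbers, a deeper p53-/- library and the unknown treatment of reads that fit several repeats.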
